A study of Mus musculus with 8 samples.

Results

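The genes described here drive the passage from G1 into S phase and copy the genome: cyclin E and E2F1, the factors that mark and license replication origins, the helicase, the polymerases with their clamp, and the enzymes that supply nucleotides. They were chosen by symbol, as 46 named genes, with 1 row of the array per symbol. Of these, 44 were matched to a row and all 44 were bright enough to be tested, out of 9920 genes tested and 19505 symbols in the table. Mcm7 and Orc5 were not matched and are not analysed here.

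The RNA came from mouse leukaemia stem cells, taken as GMPs (granulocyte-macrophage progenitors) that expressed GFP and were sorted from the marrow of transplanted mice. All cells of both groups carried MLL-AF9, a fusion oncogene that keeps myeloid progenitors self-renewing. One group of 3 arrays lacked Pik3ca (genotype Pik3ca-/-, here KO) and the other of 5 arrays was wild type at that gene (WT). Pik3ca encodes p110-alpha, a catalytic subunit of the PI3K enzymes that relay growth factor signals to AKT. Strain, age, time after transplant, the way Pik3ca was deleted and whether each array came from a separate mouse were not stated in the labels, so p-values measure only the spread between these samples. Values are the deposited log2 signals, and 1 unit on that scale is a doubling.

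In a dividing cell, the origin recognition complex (ORC) with CDC6 and CDT1 loads the MCM helicase onto DNA in G1. Cyclin E kinase and the CDC7-DBF4 kinase then switch the helicase on by adding CDC45 and GINS, and polymerases follow. Many of these genes are transcribed in a burst at the end of G1 by E2F factors, which the retinoblastoma protein holds back until cyclin-dependent kinases release them. Granulocyte-macrophage progenitors are a proliferating population.

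The gene starts were searched for E2F words, since a shared E2F site is the best known feature of this machinery. No sequence was used to choose the genes, but many are known to be transcribed by E2F. The share found is therefore a description and not independent support. Promoter windows from RefSeq (build GRCm38.p6), 250 bases before to 50 after a start, were held for 37 of the 44 genes. Mcm4, Gins1, Gins2, Gins4, Pole, Rfc2 and Ccne2 had no window and were not searched. The words were TTTGGCGC, TTTCCCGC, TTTCGCGC and TTTGCCGC, on both strands, where words on opposite strands may overlap. A window with at least 1 word was found for 13 of 37 genes, or 35.1%, against 2.6% of the 27025 genes in the table. The 13 were Mcm3, Mcm5, Mcm6, Orc1, Orc3, Cdc6, Cdt1, Gins3, Pola1, Pold1, Rfc3, Lig1 and Uhrf1. The CCAAT box, searched as CCAAT on both strands, was in 62.2% of the windows of these genes and in 41.1% of all. A word is a match of letters in this window and does not show that E2F binds there. The windows of all genes were not matched to these in base composition.

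Stretches before the start are shown for 5 of these genes that recur below, 5′ to 3′ on the strand of the gene, with the E2F words in capitals. They lie at chr8:75109334-75109389 (plus strand, Mcm5), chr1:128359723-128359837 (minus strand, Mcm6), chr4:34614954-34615005 (minus strand, Orc3), chr11:98907991-98908042 (plus strand, Cdc6) and chr17:56304106-56304157 (plus strand, Uhrf1).
Mcm5: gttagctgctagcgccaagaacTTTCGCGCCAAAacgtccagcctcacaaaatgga
Mcm6: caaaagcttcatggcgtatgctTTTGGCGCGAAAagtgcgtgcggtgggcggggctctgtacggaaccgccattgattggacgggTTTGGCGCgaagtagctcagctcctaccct
Orc3: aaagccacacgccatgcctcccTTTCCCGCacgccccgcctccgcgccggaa
Cdc6: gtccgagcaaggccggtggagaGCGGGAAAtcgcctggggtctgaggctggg
Uhrf1: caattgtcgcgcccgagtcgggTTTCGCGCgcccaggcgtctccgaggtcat
In Mcm5 and Mcm6 a pair of words on opposite strands overlaps, and Mcm6 holds 3 words in all. The first word begins 153 bases before the start in Mcm5, 110 in Mcm6, 41 in Orc3, 138 in Cdc6 and 185 in Uhrf1.

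The arrays were checked before the groups were compared. The deleted gene, Pik3ca, read 8.73, 9.31 and 9.40 in KO, and in WT it read 9.48, 9.57, 8.41, 9.51 and 9.58, so the groups overlapped through WT array 3. The difference was -0.16, or -0.39 without that array. Probes outside the deleted part would not report its loss, so this does not check the genotype. Across genes, WT array 3 had a mean correlation of 0.921 with the other arrays, against 0.968 to 0.972 for the rest, and differences are therefore also given without it. Of 10 GMP markers, all 10 lay above the median row on every array. Mpo, Elane and Prtn3, which encode primary granule proteins, were between 16.82 and 17.89, against array medians of 5.26 to 5.51. Some markers of mature neutrophils were as bright: Ngp at 17.91 to 18.21, S100a8 at 17.67 to 18.04 and Camp at 17.45 to 17.80. Others were lower, with Retnlg at 4.65 to 10.49 and Mmp8 at 6.55 to 10.79. Cebpa, a myeloid transcription factor gene, was between 6.79 and 7.14. Cd34, a progenitor surface marker, was 5.63, 7.81 and 7.42 in KO and 9.49, 7.24, 10.94, 9.08 and 8.01 in WT, so the groups overlapped. Its difference of -2.0 had a limma unadjusted p of 0.0368 and an adjusted p of 0.998, and it was -1.5 without WT array 3. Of 7 monocyte and macrophage markers, 6 were lower in KO, and for Irf8 and Ms4a6c all KO arrays lay below all WT arrays, with differences of -0.97 and -1.14, or -1.04 and -1.0 without WT array 3, where they still did not overlap. Of all genes, 1.51% lay wholly below WT, and 2.93% without that array. Of the tested markers of other lineages, 4 of 4 for megakaryocytes, 5 of 6 for mast cells, basophils and eosinophils and 6 of 7 for mature neutrophils were lower in KO, with median differences of -0.83, -0.52 and -0.07. Without WT array 3 the medians were -0.81, -0.48 and -0.05, and the second count fell to 4 of 6. The neutrophil markers had mean deviations from WT arrays 1, 2, 4 and 5 of -0.81, -0.10 and 0.93 on KO arrays 1 to 3. Tested B cell markers were lower in KO for 2 of 2, and erythroid, T and NK, and stromal and endothelial markers for 1 of 2 each. For T and NK cells that became 0 of 2 without WT array 3. Of all 9920 tested genes, 4367 were lower in KO. The megakaryocyte markers stood out on WT array 1, with a mean deviation from WT arrays 1, 2, 4 and 5 of 2.41. It was -1.01 and -0.94 on WT arrays 2 and 5, and -0.75, -0.96 and -0.61 on the KO arrays. At an adjusted p under 0.05 limma called 0 markers, and their part in the replication values was not tested.

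No gene of the replication machinery passed the test between KO and WT. With limma and Benjamini-Hochberg adjustment over all 9920 genes, 0 of 44 genes were called in either direction, as were 0% of all genes tested, and the adjusted p was 0.998 for each of the 44. At an unadjusted p under 0.05 there was 1 gene, Gins1, higher in KO, against 1.47% of all genes in that direction, and there were 0 lower in KO, against 1.37%. Most differences lay above 0 without passing: 35 of 44, or 79.5%, against 56% of all tested genes, and 31 of 44 after quantile normalization, where 51.5% of all lay above 0. The median difference, KO minus WT, was 0.24 against 0.04 for all tested genes.

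Most differences, 30 of 44, became smaller in size without WT array 3. The median was then 0.10, against 0.0002 for all tested genes, and 31 of 44 lay above 0, or 70.5%, against 50.1% of all. Again 0 of 44 were called by limma, with a smallest adjusted p of 0.964. At an unadjusted p under 0.05 there was again only Gins1, higher in KO, against 2.22% of all genes in that direction, and 0 were lower, against 2.46%. The G1/S regulators went the other way, from a median of 0.24 to 0.42. Mcm3, Cdc7, Rfc4, Rfc5 and Rpa1 went from above to below 0, and Tk1 went the other way. KO array 2 also carried part of the count: without it 28 of 44 lay above 0 and the median was 0.13, against 53% and 0.03 for all tested genes.

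**Figure D1:**
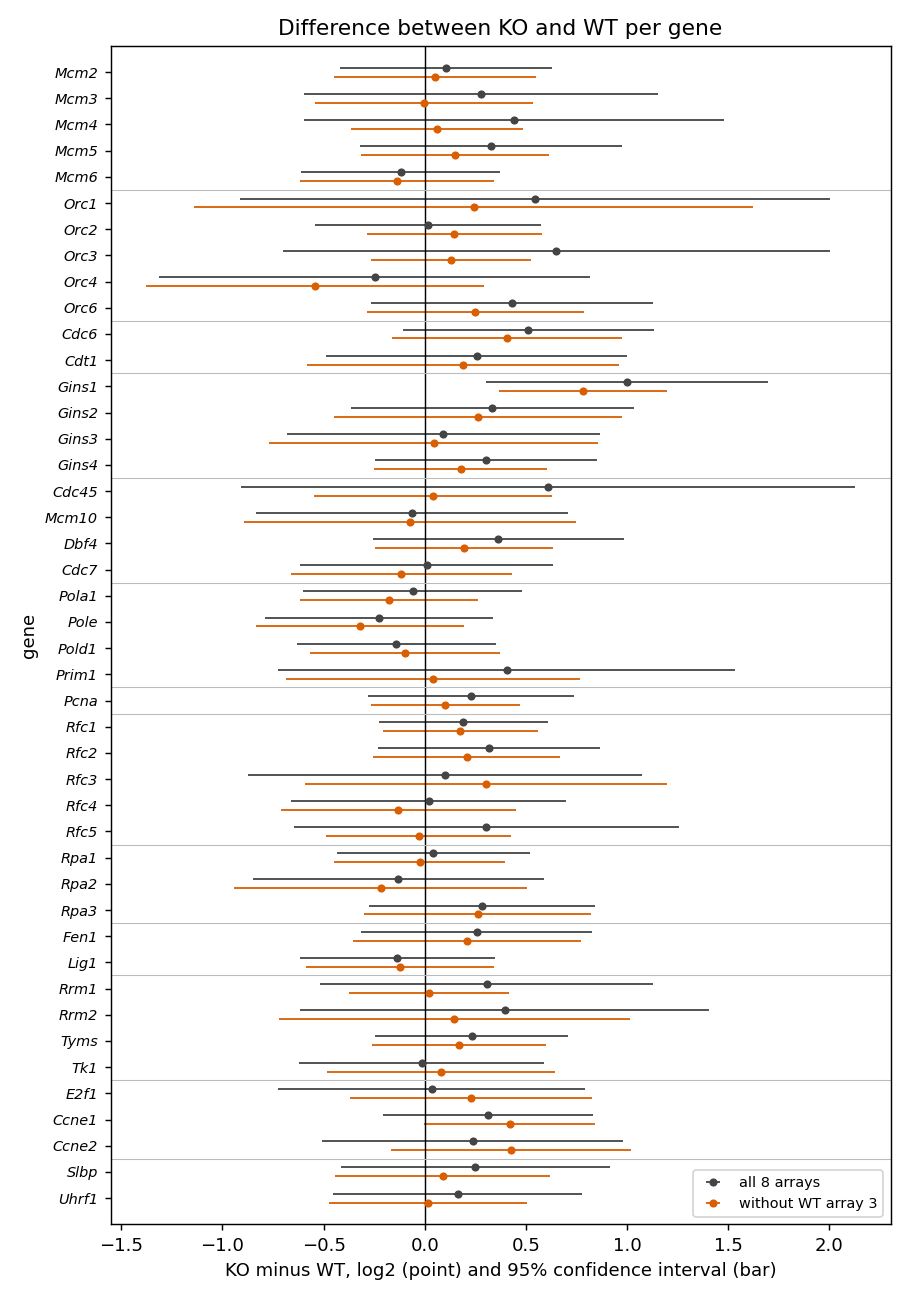
Difference between KO and WT (x axis, log2) for the 44 genes (y axis, grouped by complex), with 95% confidence intervals from limma, for all 8 arrays in grey and without WT array 3 in orange. The interval of Gins1 is the only 1 that lies apart from 0 in both fits, and the grey intervals of Mcm4, Orc3, Cdc45 and Prim1 shorten when WT array 3 is left out.

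The precision of these arrays bounds what was seen. With all arrays the 95% confidence interval of 43 of 44 genes held 0, and 28 intervals lay wholly within 1 log2 unit of 0 on either side, so for those genes a 2-fold difference lay outside the interval. Without WT array 3 there were 38 such genes, and the median half-width of the interval was 0.522 in place of 0.656. In sorted bulk cells, a change in the share of cells in S phase and a change in the level of these transcripts per cell cannot be told apart.

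Cyclin E and E2F1 act at the passage from G1 into S phase. Ccne1, encoding cyclin E1, was 14.53, 14.25 and 14.23 in KO (arrays 1 to 3, in that order here and below) and 13.93, 14.10, 14.45, 14.02 and 13.60 in WT (arrays 1 to 5). All KO arrays lay above 4 of the 5 WT arrays, and WT array 3 lay among them. The difference was 0.31 (95% interval -0.21 to 0.83), or 0.42 if WT array 3 was left out, where the groups did not overlap and the limma unadjusted p was 0.0524 (adjusted 0.989). Non-overlap in this direction without that array held for 2 of the 44 genes, Ccne1 and Gins1, against 2.62% of all genes, and 0 of the 44 lay wholly below WT, against 2.93%.

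Ccne2, encoding cyclin E2, was 14.15, 13.93 and 14.30 in KO and 13.74, 14.27, 14.64, 13.56 and 13.22 in WT. Its difference of 0.24 (interval -0.51 to 0.98) lay within the spread, and WT arrays 2 and 3 lay among or above the KO arrays. It was larger without WT array 3, at 0.43 (interval -0.17 to 1.02). E2f1, encoding 1 of the E2F transcription factors, was 9.63 to 9.85 in KO and 8.85 to 10.45 in WT, a difference of 0.03, or 0.23 without WT array 3. In all 3 of these regulators WT array 3 was the highest WT array, by 0.54 to 0.98 above the other 4 on average. This set them apart from the other complexes, whose median deviation on that array was below 0 in each case.

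Origins are marked by ORC. Orc6, its smallest subunit, was 13.34, 13.33 and 13.18 in KO and 12.98, 13.60, 12.13, 12.80 and 12.74 in WT. The KO arrays lay above 4 of the 5 WT arrays and below WT array 2, with a difference of 0.43 (interval -0.27 to 1.13), or 0.25 without WT array 3. Orc3, a subunit of the core, was 13.83, 14.13 and 14.27 in KO and 14.09, 13.86, 11.34, 13.85 and 13.98 in WT. One array made that gap: WT array 3 stood at -2.61 relative to the other WT arrays' mean, and the difference of 0.65 became 0.13 without it.

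The remaining ORC subunits showed no common direction. Orc1, the subunit most tied to E2F and the cell cycle, ranged from 6.56 to 9.12 among the KO arrays alone, wider than its difference of 0.54, which was 0.24 without WT array 3. Orc2 differed by 0.02, or 0.15 without that array, and Orc4 by -0.25, which became -0.54 without WT array 3 (interval -1.38 to 0.29). Over the 5 subunits tested, 4 differences lay above 0, and the median was 0.43, which became 0.15 without WT array 3.

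Licensing adds CDC6 and CDT1. Cdc6 was 11.27, 11.91 and 10.94 in KO and 11.19, 11.01, 10.43, 10.82 and 10.85 in WT. Only KO arrays 1 and 2 lay above the WT range, and KO array 3 lay inside it. The difference was 0.51 (interval -0.11 to 1.13, limma unadjusted p = 0.0936, adjusted p = 0.998), 0.41 without WT array 3 and 0.24 without KO array 2.

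Cdt1, encoding the factor that brings the helicase to ORC, was 11.89, 12.23 and 10.74 in KO and 11.49, 11.21, 11.10, 11.56 and 11.45 in WT. KO arrays 1 and 2 were the highest of the 8 and KO array 3 the lowest, so the KO arrays enclosed the whole WT range. Its SD was 0.78 in KO (n = 3) and 0.20 in WT (n = 5), and the difference of 0.26 was 0.19 without WT array 3 and turned to -0.05 without KO array 2.

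The MCM subunits form the ring that unwinds DNA. Mcm5 was 14.93, 15.14 and 14.47 in KO and 14.66, 14.89, 13.82, 14.71 and 14.53 in WT, a difference of 0.33 (interval -0.32 to 0.97) that became 0.15 without WT array 3. Mcm4 was 13.32, 13.24 and 12.91 in KO and 13.29, 13.22, 11.20, 12.95 and 12.92 in WT. Apart from WT array 3, the arrays of both groups covered nearly the same range, and the difference went from 0.44 to 0.06 without it. Mcm3 went from 0.28 to -0.0039 in the same way.

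Mcm2 and Mcm6 had differences of 0.11 and -0.12, and of 0.05 and -0.14 without WT array 3. Mcm6 had little spread between WT arrays, 13.98 to 14.53, and WT array 3 lay inside that range at 14.22. Subunits of 1 ring therefore did not deviate alike on WT array 3, where the deviation from the other WT arrays went from -1.90 for Mcm4 to -0.08 for Mcm6. Over the 5 subunits the median difference was 0.28, and 0.05 without WT array 3 or without KO array 2.

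GINS is the 4-part complex that joins MCM and CDC45 in the active helicase, and its subunit Gins1 had the smallest p of all 44 genes. Gins1 was 12.54, 12.72 and 12.71 in KO and 11.90, 11.87, 10.78, 11.59 and 12.15 in WT. Each KO array lay above each WT array, which held for 1 of the 44 genes with all arrays, against 1.58% of all genes tested, and 0 of the 44 lay wholly below WT, against 1.51%. The means were 12.66 ± 0.10 (SD, n = 3) and 11.66 ± 0.53 (SD, n = 5). The difference of 1.00 (SE 0.31, interval 0.30 to 1.70) had a limma unadjusted p of 0.0100 and an adjusted p of 0.998.

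Without WT array 3 the Gins1 difference was 0.78 (interval 0.37 to 1.20), with a limma unadjusted p of 0.00244 and an adjusted p of 0.964. It lay between 0.78 and 1.14 in all alternatives run, none of which brought its adjusted p under 0.05. The other 3 subunits had smaller differences. Gins4, at 13.48, 13.63 and 13.17 in KO and 13.28, 13.47, 12.61, 13.05 and 13.21 in WT, differed by 0.30 (interval -0.24 to 0.85), or 0.18 without WT array 3. Gins2 differed by 0.33, with KO array 2 at 11.62 and the other KO arrays at 10.51 and 10.73, and Gins3 differed by 0.09, and these became 0.26 and 0.04 without WT array 3.

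**Figure D2:**
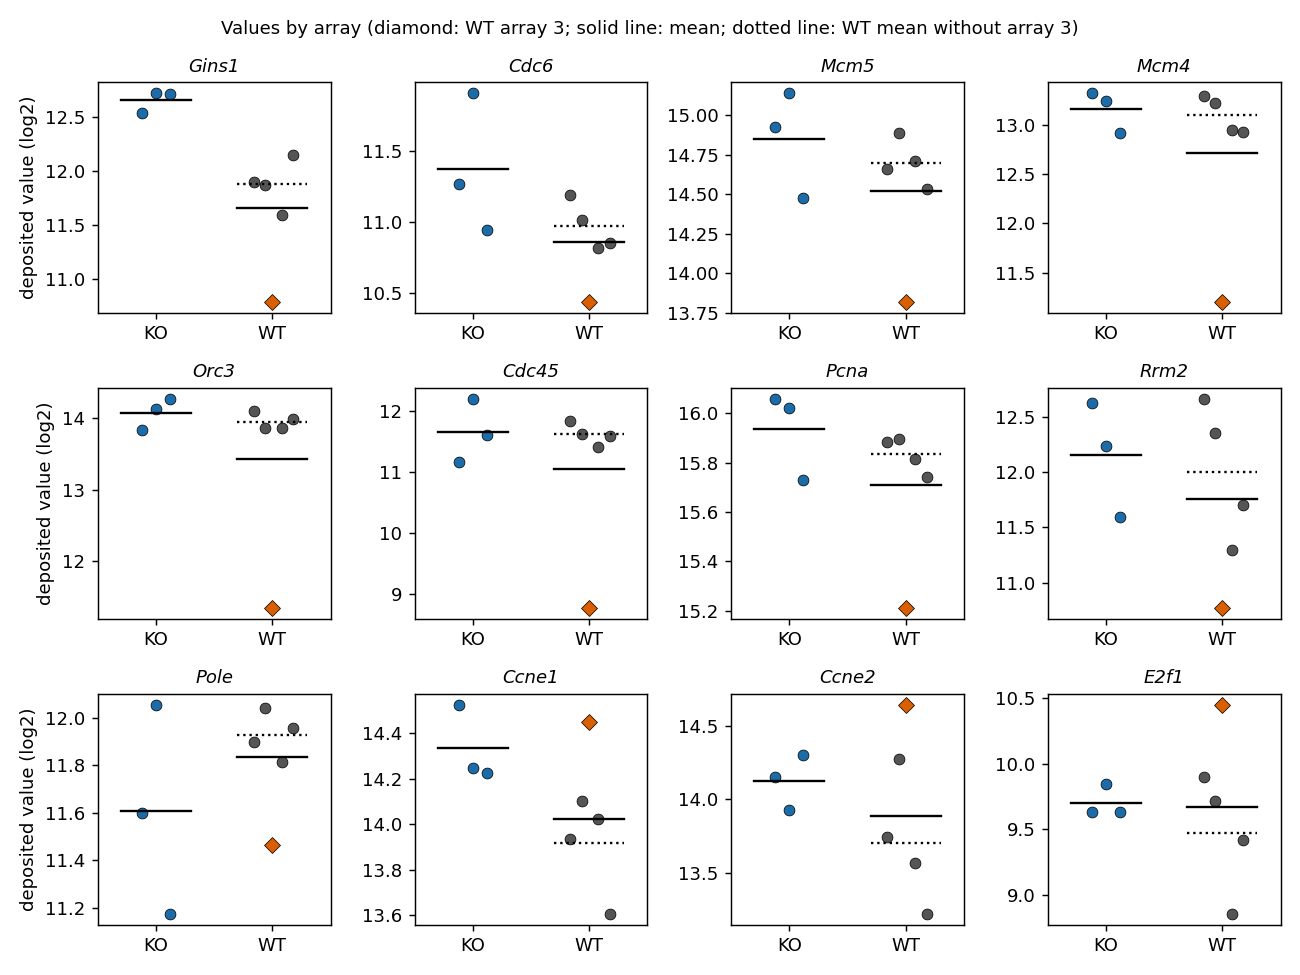
Deposited log2 values (y axis) of 12 genes in the KO and WT arrays (x axis), with 1 point per array. The solid line is the mean of the group, the diamond is WT array 3 and the dotted line is the WT mean without it. The KO points of Gins1 lie above all WT points, while in Mcm4, Orc3 and Cdc45 the gap between the solid lines comes from the diamond, which in Ccne1, Ccne2 and E2f1 is the highest WT point.

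Helicase activation needs CDC45, MCM10 and the CDC7-DBF4 kinase. Cdc45 was 11.16, 12.20 and 11.61 in KO and 11.83, 11.62, 8.77, 11.42 and 11.59 in WT. WT array 3 stood at -2.85 relative to the other WT arrays' mean, the largest such gap of the 44 genes, and the difference went from 0.61 to 0.04 without it. Dbf4, the activating subunit of the kinase, was 10.49, 10.75 and 10.37 in KO and 10.18, 10.66, 9.50, 10.35 and 10.18 in WT, with a difference of 0.36 (interval -0.26 to 0.98) that became 0.20. Its partner Cdc7 differed by 0.01 and Mcm10 by -0.06, and by -0.12 and -0.07 without WT array 3.

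The polymerases were the only 1 of the 13 sets whose median lay below 0 with all arrays, at -0.10, though it was 0.03 without KO array 3. With WT array 3 dropped it was -0.14, and the medians of helicase activation and RPA were then also below 0, at -0.02 and -0.03. Pole, the catalytic subunit of the leading-strand polymerase, was 11.60, 12.05 and 11.17 in KO and 11.90, 12.04, 11.47, 11.82 and 11.96 in WT. KO array 2 lay above all WT arrays and KO array 3 below them all, with a difference of -0.23 (interval -0.79 to 0.34), or -0.32 without WT array 3. Pold1, of the lagging-strand polymerase, and Pola1, of the polymerase that starts each strand, differed by -0.14 and -0.06, and by -0.10 and -0.18 without WT array 3. Prim1, the primase subunit that lays down RNA primers, was 12.63, 12.76 and 12.50 in KO and 13.03, 12.73, 10.77, 11.71 and 12.88 in WT, so WT arrays 3 and 4 were low. Its difference of 0.40 became 0.04 without WT array 3.

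PCNA is the sliding clamp that holds polymerases on DNA. Pcna was 16.06, 16.02 and 15.73 in KO and 15.89, 15.90, 15.21, 15.81 and 15.74 in WT. Its WT arrays other than array 3 spanned 15.74 to 15.90, a narrow range, and 2 of the 3 KO arrays lay above it while KO array 3 lay just below. The difference was 0.23 (interval -0.28 to 0.74) and 0.10 (interval -0.27 to 0.47) without WT array 3.

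RFC opens the clamp and loads it. Rfc2 was 12.82, 13.41 and 13.20 in KO and 13.09, 12.68, 12.37, 12.89 and 13.06 in WT, with a difference of 0.32 (interval -0.23 to 0.87), or 0.21 without WT array 3. Rfc1, the large subunit, had KO arrays close together at 13.67, 13.64 and 13.60 and WT arrays at 13.68, 13.55, 13.39, 13.30 and 13.30, and differed by 0.19 (interval -0.23 to 0.61), or 0.18 without WT array 3. The KO arrays of Rfc1 lay within the upper part of the WT range. Rfc3, Rfc4 and Rfc5 differed by 0.10, 0.02 and 0.30, and by 0.30, -0.13 and -0.03 without WT array 3, which was the highest of the 8 arrays in Rfc3 and the lowest in Rfc4 and Rfc5.

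RPA coats the single-stranded DNA behind the helicase. Rpa3, its smallest subunit, was 12.18, 12.08 and 12.73 in KO and 12.31, 11.66, 11.97, 11.96 and 12.35 in WT, with a difference of 0.28 (interval -0.28 to 0.84), or 0.26 without WT array 3. Rpa2 was 11.21, 11.55 and 11.74 in KO and 12.12, 12.25, 11.28, 11.42 and 11.07 in WT, with a difference of -0.13, and Rpa1 differed by 0.04. These became -0.22 and -0.03 without WT array 3. The KO arrays lay inside the WT range in Rpa2 and overlapped it in Rpa3.

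FEN1 trims the flaps of Okazaki fragments and LIG1 seals them. Fen1 was 12.32, 13.01 and 12.17 in KO and 12.29, 12.60, 12.05, 12.03 and 12.25 in WT, and its difference of 0.26 (interval -0.31 to 0.83) became 0.0023 without KO array 2 and 0.21 without WT array 3. Lig1 was 10.49, 10.50 and 10.11 in KO and 10.47, 10.84, 10.55, 10.40 and 10.25 in WT, a difference of -0.13 (interval -0.62 to 0.35), or -0.12 without WT array 3. On WT array 3 both genes lay near the other WT arrays, at -0.24 and 0.06 from their mean.

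Deoxynucleotides come from ribonucleotide reductase, thymidylate synthase and thymidine kinase. Tyms was 14.59, 14.57 and 14.27 in KO and 14.39, 14.57, 14.00, 14.22 and 14.05 in WT, with a difference of 0.23 (interval -0.24 to 0.71), or 0.17 without WT array 3. Rrm2, the reductase subunit that limits activity in S phase, was 12.63, 12.23 and 11.59 in KO and 12.66, 12.36, 10.77, 11.30 and 11.70 in WT. Both groups spread over more than 1 log2 unit in Rrm2, and its difference was 0.39 (interval -0.62 to 1.41), which became 0.15 without WT array 3 and 0.16 without KO array 1. Rrm1 differed by 0.31, and by 0.02 without WT array 3, and Tk1 by -0.01, and by 0.08 without it.

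SLBP binds and stabilises histone mRNA in S phase, and UHRF1 guides maintenance DNA methylation behind the fork. Slbp was 13.60, 14.02 and 13.42 in KO and 13.35, 13.92, 12.78, 13.78 and 13.32 in WT, a difference of 0.25 (interval -0.41 to 0.91). Uhrf1 was 13.68, 13.81 and 13.29 in KO and 13.89, 13.65, 12.84, 13.50 and 13.26 in WT, a difference of 0.16 (interval -0.45 to 0.78). WT array 3 was the lowest of the 8 arrays for both, and without it the differences were 0.09 and 0.01.

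The arrays of a group differed among themselves in these genes. WT array 3 lay below the average of the remaining WT arrays in 36 of 44 genes, or 81.8%, against 56.5% of all tested genes, and was the lowest of all 8 arrays in 25, or 56.8%, against 36.5%. Its median deviation from the other WT arrays was -0.55 over the 44 genes and -0.15 over all tested genes.

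WT array 3 also had the highest summed level of B cell markers, 9.86 on the log2 scale against 8.33 to 9.38 elsewhere. The same held for T and NK cell markers, 8.40 against 7.24 to 7.85, and for monocyte and macrophage markers, 16.54 against 15.73 to 16.27. The last sum lay close to Ly6c2 alone, at 16.50 on WT array 3. On that array the brightest gene in the B cell sum was Cd79b, at 9.21, and in the T and NK sum Cd4, at 7.72. Taken singly, 4 of the 7 monocyte and macrophage markers were lower on WT array 3 than WT arrays 1, 2, 4 and 5 averaged. The mean deviation of the 7 from those arrays was -0.34. The summed level of GMP markers on WT array 3 was the lowest of the 8, though WT array 4 lay within 0.01 of it. Taken singly, the GMP markers were mixed: 7 of 10 were lower on WT array 3 than WT arrays 1, 2, 4 and 5 averaged. Kit and Cd34 were instead the highest of the 8 arrays there, at 16.40 and 10.94, and the mean deviation of the 10 was 0.08. Of the 6 matched B cell markers, 3 lay below the median row on every array, among them Cd79a and Pax5, and so did 4 of 6 T and NK cell markers, among them Cd3e. Their part in the low replication values was not tested.

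The KO arrays did not deviate alike either. KO array 2 was the highest KO array in 27 of 44 genes, or 61.4%, against 38% of all tested genes, and KO array 3 was the lowest KO array in 29, or 65.9%, against 36.9%. The order KO 2, KO 1, KO 3 from high to low held in 19 genes, or 43.2%, against 19.8% of all. It is seen in Cdc6, Cdt1, Mcm5, Pole and Uhrf1.

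**Figure D3:**
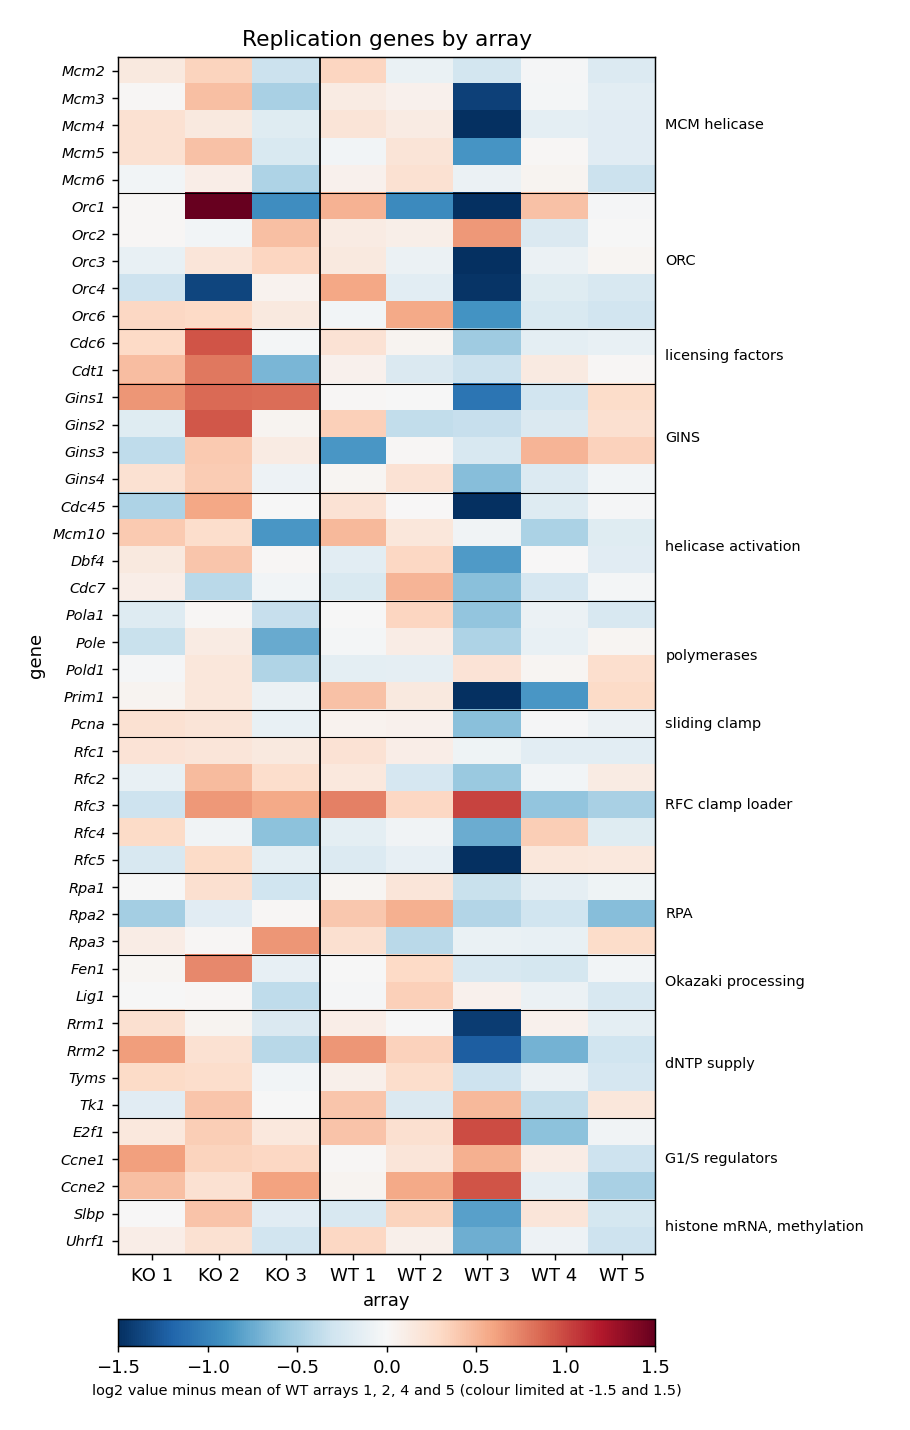
Values of the 44 genes (rows, grouped by complex) on the 8 arrays (columns), as log2 value minus the mean of WT arrays 1, 2, 4 and 5, with colours limited at -1.5 and 1.5. The column of WT array 3 is blue except for Orc2, Pold1, Rfc3, Lig1, Tk1 and the 3 G1/S regulators, and KO array 2 is the highest KO array in 27 of the 44 rows.

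The complexes differed in their mean deviation from WT arrays 1, 2, 4 and 5. For the MCM genes it was 0.11, 0.29 and -0.33 in KO arrays 1 to 3 and -0.91 in WT array 3. For the licensing factors it was 0.38, 0.87 and -0.36 in KO and -0.43 in WT array 3, and for GINS 0.08, 0.64 and 0.23 and -0.58. KO array 2 was the highest KO array in each of these 3 sets, whereas in RPA it was KO array 3, at 0.13. KO array 1 was the lowest KO array in GINS, in ORC at -0.01, in RFC at -0.03 and in RPA at -0.14. Only in the G1/S regulators were all 3 KO arrays and WT array 3 above 0, at 0.41, 0.31, 0.36 and 0.82, with WT arrays 1, 2, 4 and 5 at 0.16, 0.34, -0.22 and -0.28.

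The wider machinery, from a list of 40 other replication genes of which 39 were tested, gave 0 called genes, 31 differences above 0, against 56% of all tested genes, and a median of 0.19, or 0.10 without WT array 3. At an unadjusted p under 0.05 in limma there were 2, both higher in KO, against 1.47% of all genes in that direction. Fbxo5, which encodes EMI1, an inhibitor of the ubiquitin ligase that destroys cyclins and geminin, was 13.57, 13.55 and 13.59 in KO and 13.01, 12.89, 12.58, 12.94 and 12.98 in WT. Its groups did not overlap, and its difference was 0.69 (interval 0.27 to 1.11, limma unadjusted p = 0.00491, adjusted p = 0.998) and 0.61 without WT array 3. Pold3, a subunit of the lagging-strand polymerase, differed by 1.03, and by 0.72 without WT array 3, where its groups still did not overlap. Fbxo5 and Pold3 were the 2 of 39 genes with all KO arrays above all WT arrays, against 1.58% of all tested genes. Without WT array 3 there were again 2, against 2.62%. In both fits 0 of the 39 lay wholly below WT, against 1.51% and 2.93% of all. Mtbp, a partner of the origin firing factor treslin, differed by 0.98 and Gmnn, encoding the CDT1 inhibitor geminin, by 0.51, each with overlapping groups, and by 0.61 and 0.35 without WT array 3.

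Of 17 other G1/S regulators, 0 were called, 11 differences lay above 0, against 56% of all tested genes, and the median was 0.11, or 0.04 without WT array 3. Skp2, of the ligase that degrades the inhibitor p27, differed by 0.43, E2f5, an E2F family gene, by 0.52, Tfdp2, a dimerization partner of E2F proteins, by 0.32, and Cdc25a, a phosphatase that activates CDK2, by 0.65. The KO arrays of Cdc25a lay close together at 12.23, 12.17 and 12.20, inside the range of the WT arrays. Those read 12.11, 12.48, 10.17, 11.79 and 11.20, and the interval of the difference was -0.41 to 1.71. With WT array 3 left out the 4 differences were 0.45, 0.64, 0.36 and 0.31. The groups of each of the 4 genes overlapped, with and without that array. E2f5 was dim, at 5.57 to 6.89 against array medians of 5.26 to 5.51. Of 18 G2/M genes, 0 were called, 13 lay above 0, against the same 56%, and the median was 0.17, or 0.07 without WT array 3. Cenpf, encoding a kinetochore protein, differed by 0.74 (limma unadjusted p = 0.0389, adjusted p = 0.998). It was the 1 gene of the 18 whose KO arrays all lay above all WT arrays, against 1.58% of all tested genes. It was also the only 1 with a limma unadjusted p under 0.05, against 1.47% of all genes higher in KO. Kif11, Kif20a and Aurkb, each with overlapping groups, differed by 0.52, 0.53 and 0.36. When WT array 3 was left out these differences became 0.54 for Cenpf and 0.28, 0.24 and 0.18 for the others. The groups of Cenpf still did not overlap then, against 2.62% of all tested genes in that direction. E2F words were in the promoter windows of 13 of 32 other replication genes, 7 of 14 other G1/S regulators and 1 of 16 G2/M genes. The CCAAT box was in 50%, 64.3% and 87.5% of the windows of these 3 lists, against 62.2% for the replication genes described above.

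**Figure D4:**
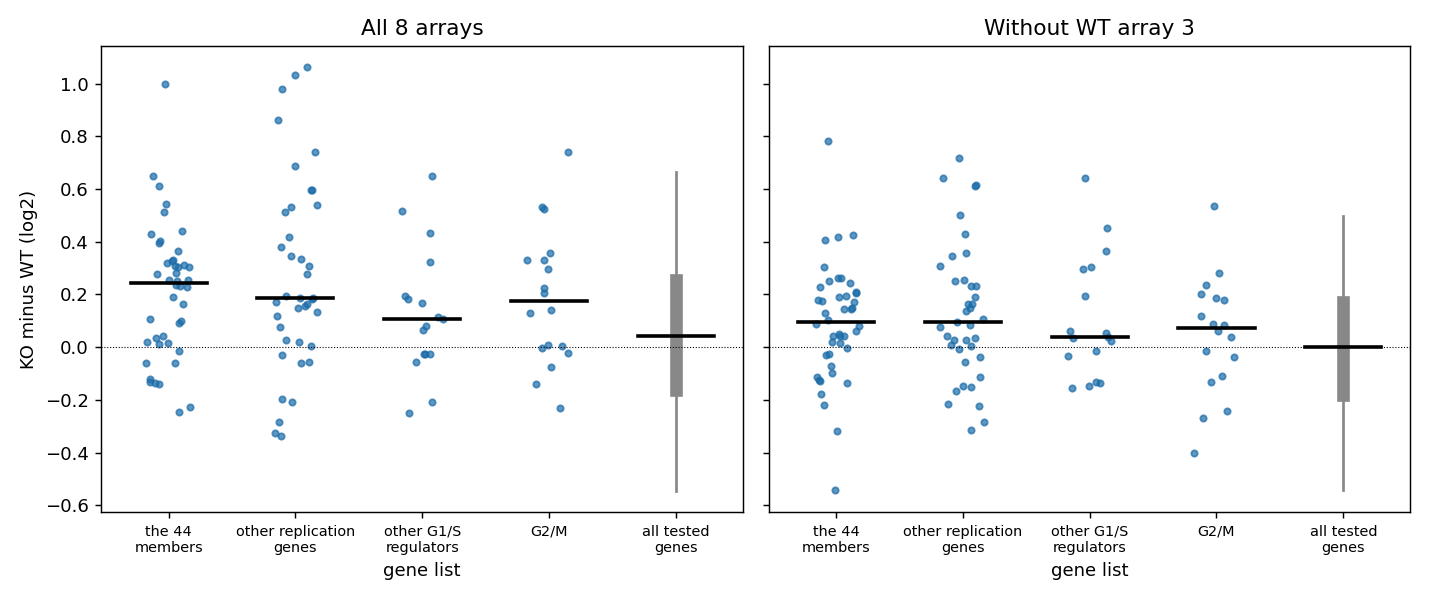
Difference between KO and WT (y axis, log2) for the 44 genes and for 3 lists of related genes (x axis), with 1 point per gene and a bar at the median. For all tested genes the thick bar spans the quartiles and the thin line the 5th to 95th percentiles. The median of the 44 genes is 0.24 on the left and 0.10 on the right, and the related lists move toward 0 with it.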

How the data were processed

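The authors deposited 1 table of log2 values for 8 arrays, with RNA from a small-sample kit and a standard Affymetrix biotin protocol, per the labels' protocols. The log base is read from the values, 1.89 to 18.6. Software, background correction, normalization and build: not given in the sources used here. Scanner files were not used here. Gene names came from the platform annotation whose identifiers match the rows, which appears to be of another Affymetrix mouse array than the design text names, so the array type is open. Rows with 1 symbol that exceeded the 50th percentile of their array on at least 3 arrays were tested, and the row with the highest mean stood for its symbol. KO was compared with WT by limma 3.58.1 in R 4.3.3 (lmFit, eBayes, two-sided, no further normalization), with Benjamini-Hochberg adjustment over 9920 genes and a threshold of 0.05. The fit was tested on simulated data. No arrays were duplicates, the closest pair differing by a root mean square of 0.574.

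The genes, the lists and the rule for naming them were chosen with earlier results of these data known. All values per array are given for the 2 genes of each complex with the smallest unadjusted p, for genes whose groups did not overlap, and for up to 4 genes of each related list, some by their difference only. Complexes are described by counts and medians, with no test. Alternatives were other filters and normalizations, a floor, other eBayes settings, weights per array, a block on the replicate number, another row per symbol and each array left out. Promoter sequences are from RefSeq, GRCm38.p6. Figures were drawn with matplotlib 3.10.9.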

Additional observations from a re-analysis of the deposited data

Results flagged for a closer look

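In the 5 WT arrays, 39 values (the genes given by array, the means of the complexes and the correlation between arrays) were screened for 1 array lying far off, by its gap to the nearest other array over the range of the group, with a limit of 0.71. For a single value, chance passes this limit about 1 time in 20. Here 6 were found, each with WT array 3 at the low end. The values share genes and arrays, and WT array 3 had been set apart before the search. That rate is therefore no yardstick for the count. The ratio was 0.825 for Mcm4, 0.913 for Orc3, 0.865 for Cdc45, 0.774 for Pcna and 0.739 for the mean of the origin recognition complex. For the mean correlation with the other arrays it was 0.98. Sets of 3 KO arrays were too small to search.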

How the results depend on the processing

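Under 17 alternatives limma called 0 genes and 0 of the 44 replication genes at an adjusted p under 0.05. At an unadjusted p under 0.05 it gave 217 to 592 of the genes tested. Of 425 values of the 25 genes given by array, 421 kept the direction of their difference. The 4 others were Ccne2 at -0.094 with the replicate number as a block, Rpa2 at 0.01 without KO array 1 and 0.026 without WT array 2, and Cdt1 at -0.046 without KO array 2. With 1 array left out, Cdt1 ranged from -0.046 to 0.70 and Rpa2 from -0.27 to 0.026. The median of the licensing factors ranged from 0.10 to 0.71 and that of RFC from 0.14 to 0.41 with 1 array left out. The medians of the other complexes moved by less than the spread of the WT arrays, but small ones changed sign: the G1/S regulators to -0.094 and Okazaki processing to -0.03 with the block, RPA to -0.09 and Okazaki processing to -0.10 without KO array 2, RPA to -0.0044 with array weights and -0.03 without WT array 3, helicase activation to -0.02 without WT array 3 and the polymerases to 0.03 without KO array 3. GINS was at 0.10 without KO array 2. Same-numbered KO and WT arrays shared only a number: their deviations correlated at 0.02, -0.02 and 0.14, and 2 of 6 arrays correlated best with their own number. With that block the median of the 44 genes was 0.21, with 31 above 0. E2F words were in 9 of 37 promoters when only the 250 bases before the start were searched, and in 9 when only words ending in GCGC were, against 13. The number of arrays limits the precision.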
